A study of Mus musculus with 10 samples.

Results

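The genes of the MHC class II antigen presentation machinery were followed through the endothelial cells (ECs) of mouse long bones. The 7 genes were Cd74, H2-Aa, H2-Ab1, H2-Eb1, H2-DMa, H2-DMb1 and Ciita, of 26228 genes in the tables, and all 7 were found. They were counted by single-cell RNA sequencing as unique molecular identifiers (UMIs, 1 per captured RNA molecule). A barcode was kept as an EC when it had 500 to 6000 genes, under 25% mitochondrial UMIs, at least 2 UMIs of Cdh5, Pecam1, Egfl7 and Kdr together, and no UMI of Ptprc, the pan-leukocyte marker. Of 47466 barcodes, 44640 met this rule.

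The cells came from collagenase-digested femora and tibiae of Cdh5-mTnG reporter mice on the C57BL/6 background, in which endothelial Cdh5 activity drives a membrane tdTomato and a nuclear GFP. They were depleted of lineage-positive blood cells and sorted as GFP and tdTomato double-positive. There were 5 groups with 2 libraries each: juvenile (3-week-old males and females), adult (12-week-old females), aged (75-week-old females), adult females of 12 weeks given parathyroid hormone (PTH), and adult females of 12 weeks given alendronate, a bisphosphonate that blocks bone resorption. Each group was a pool of mice prepared once, so the spread between its 2 libraries is not a spread between mice. The p-values between groups measure only the spread between libraries. Tests between types take every library as a unit, although both libraries of a group share a pool. Juvenile and adult also differ in sex, which cannot be told apart from age.

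ECs were divided by marker UMIs into arterial cells (Gja4; 4448 cells), metaphyseal capillary cells (Ramp3 and Aplnr; 8386 cells), sinusoidal cells of the marrow (Stab2; 16298 cells) and type R cells, the post-arterial capillaries marked by Timp4 and Aqp7 (1826 cells). A type needed at least 2 UMIs of its markers and more than 2 times the UMIs of the other types' markers, and 13682 cells had no type. As a check on markers that the division did not use, 16 of 16 were highest in the type they belong to by median level over the 10 libraries, among them Bmx in arterial, Piezo2 in metaphyseal, Vcam1 in sinusoidal and Car4 in type R cells.

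MHC class II molecules present peptides from endocytosed proteins to CD4+ T cells. The classical dimer I-A is built from an α chain (H2-Aa) and a β chain (H2-Ab1). H2-Eb1 encodes the β chain of I-E, whose α chain gene is defective in C57BL/6 mice. Cd74, the invariant chain, fills the groove of new dimers and escorts them to endosomes, where the H2-DM dimer (H2-DMa and H2-DMb1) exchanges its remnant for antigenic peptide. Ciita is the transactivator that switches the whole set on. It binds no DNA itself but docks on factors seated at a conserved pair of promoter elements, the X box and the Y box. B cells, dendritic cells and macrophages carry class II constitutively, whereas in most other cells, the endothelium included, it is induced by interferon-γ.

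The I-A and DM genes and H2-Eb1 lie together on chromosome 17 of mm10 (GRCm38): H2-DMa at chr17:34119541-34139101, H2-DMb1 at chr17:34153072-34160230, H2-Ab1 at chr17:34257689-34269419, H2-Aa at chr17:34282744-34287823 on the minus strand and H2-Eb1 at chr17:34305867-34316674. Ciita lies at chr16:10480059-10528418. H2-DMa overlaps Brd2, H2-Eb1 overlaps Gm20513 and Ciita overlaps Dexi, all on the opposite strand. The strand setting of the counting is not given in the sources used here, so reads of these pairs may be mixed, and reads shared between H2-DMb1 and its near copy H2-DMb2 may be split.

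The promoters of the α chain of I-A and of the β chain of I-E are shown because the letters of the X and Y boxes can be seen in both. They are RefSeq sequences of GRCm38.p6, each the 120 bases before the gene's start, read in the direction of the gene, at chr17:34287824-34287943 (minus strand) for H2-Aa and chr17:34305747-34305866 (plus strand) for H2-Eb1. Capitals mark core letters of the X box (GNAAC) and the Y box (ATTGG).
H2-Aa: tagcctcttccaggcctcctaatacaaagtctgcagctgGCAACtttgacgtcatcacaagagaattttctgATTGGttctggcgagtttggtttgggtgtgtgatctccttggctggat
H2-Eb1: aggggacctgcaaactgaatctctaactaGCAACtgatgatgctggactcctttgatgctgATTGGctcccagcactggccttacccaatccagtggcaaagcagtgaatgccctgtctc

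The marked letters of the X and Y boxes were separated by 28 bases in H2-Aa and 27 bases in H2-Eb1. The search was for GNAAC followed after 25 to 30 bases by ATTGG, on both strands, in windows from 250 bases before to 50 bases after a start, and the pattern was chosen with these sequences in view. It was found in 343 of 32851 promoters (1.04%) and in 3 of the 5 promoter entries that matched 4 of the genes. These were H2-Aa, H2-Eb1 and H2-DMb1, where the gap was again 28 bases. It was in neither of the entries for H2-DMa, 1 of which holds ATTGG alone, as 37.4% of all promoters do. H2-Ab1 and Ciita had no entry, and Cd74 was not among the genes looked up. A match describes letters and is not a binding site.

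The files held between 10653583 and 28419323 UMIs per library, with 2141 to 7460 ECs per library and a median of 3106 to 4932.5 UMIs per EC. Levels are given as counts per 10 to the power of 6 UMIs of the summed cells (CPM) and are compared for 1 gene at a time. Differences were tested with edgeR's quasi-likelihood test on the sums of UMIs per library (or per type and library, if at least 20 cells), with Benjamini-Hochberg adjustment over all genes of a fit and a call at an adjusted p under 0.05. The aged libraries stood apart in 2 technical features. Of their UMIs, 1.52% and 1.53% belonged to gene symbols starting with the letter U, and no other library listed symbols with this letter. They also shared 1 to 4 cell barcodes with any other library and with each other, against 8 to 72 between other libraries. A run or kit that differed with them cannot be told apart from age. Type R cells were few in juvenile libraries (42 and 22 cells) and in PTH replicate 1 (23 cells), so that 1 UMI weighs 9.61 CPM in the latter, and values near 0 are not informative.

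Among the endothelial types, class II RNA was highest in arterial cells, followed by metaphyseal, sinusoidal and type R cells. Over the 10 libraries the level of Cd74, the invariant chain, ran from 8.44 to 2236 CPM (median 128) in arterial cells. It ran from 1.63 to 1217 CPM (median 36.6) in metaphyseal, from 3.42 to 449.5 CPM (median 16.1) in sinusoidal and from 0 to 250.2 CPM (median 8.42) in type R cells. These ranges overlap between types. Within a library the place of arterial cells was steadier than the order of the others. Arterial cells had the highest Cd74, H2-Aa, H2-Ab1 and H2-DMb1 in 10 of 10 libraries, and the highest H2-Eb1 and H2-DMa in 9 of 10. Ciita, with few UMIs, was highest in arterial cells in 6 of the 8 libraries where it was detected in a type, and in metaphyseal cells in 2. In juvenile replicate 2, H2-Eb1 was highest in type R cells, on 1 UMI in 22 cells, against 3 UMIs in arterial cells. Cd74 was higher in metaphyseal than in sinusoidal cells in 7 of 10 libraries, the exceptions being both juvenile libraries and PTH replicate 1. It was higher in sinusoidal than in type R cells in 8 of 10, and H2-Eb1 in 6 of 10.

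**Figure D1:**
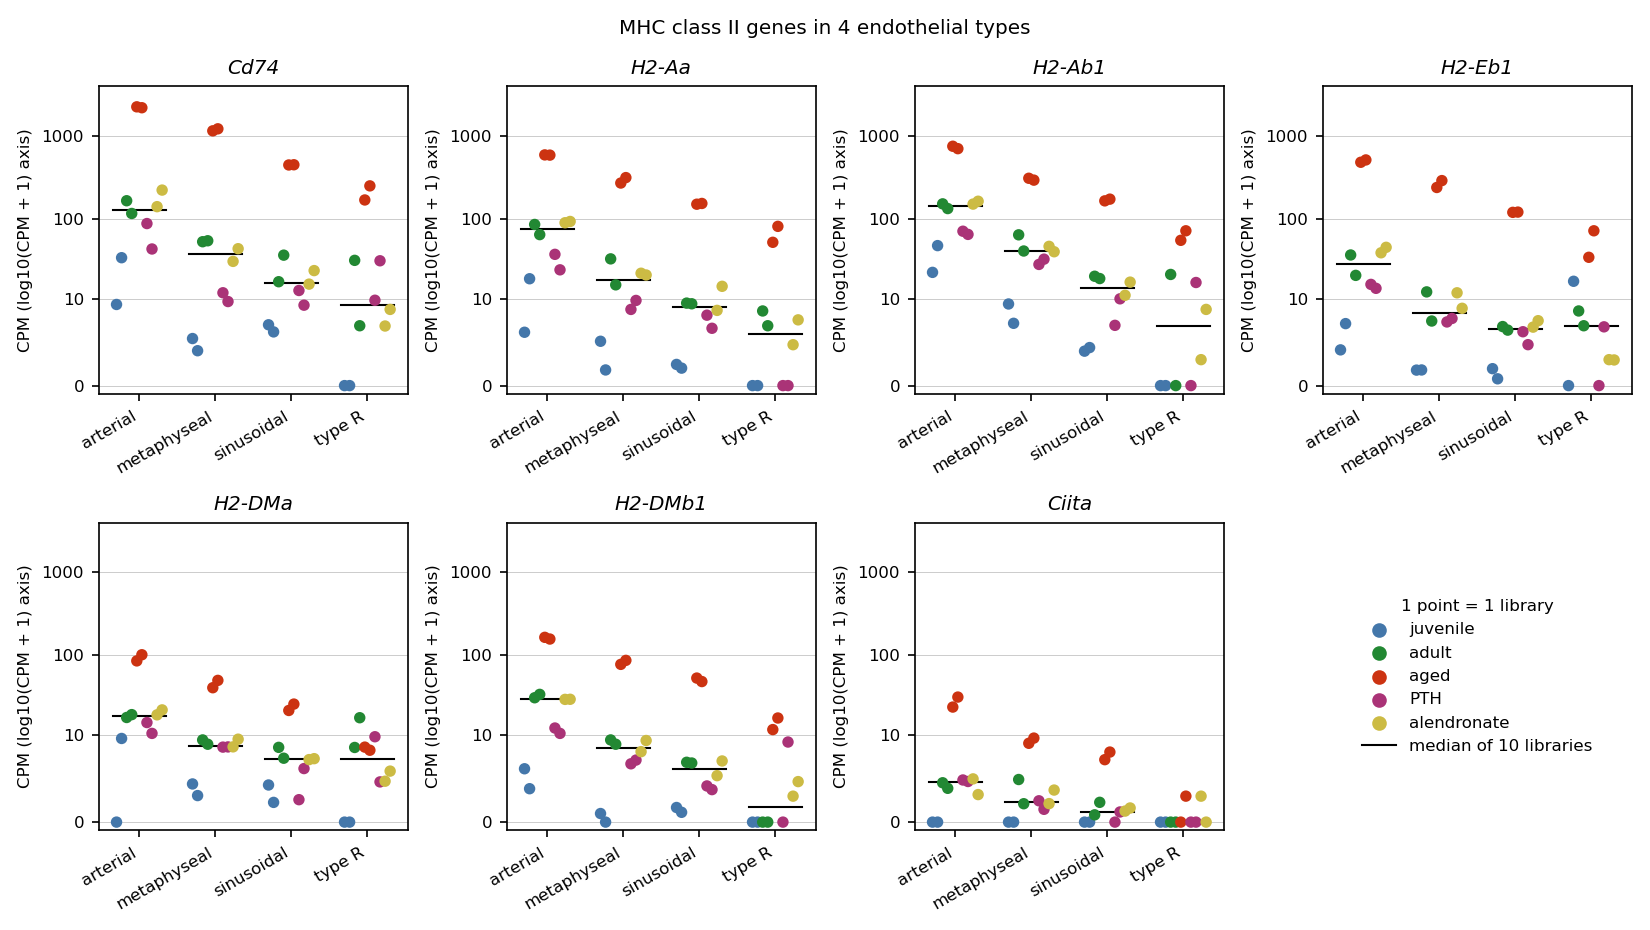
Level of each gene (CPM, on a log10(CPM + 1) axis) in arterial, metaphyseal, sinusoidal and type R cells. Each point is 1 library, coloured by group, and black lines are medians of 10 libraries. Cd74 falls from a median of 128 CPM in arterial to 8.42 CPM in type R cells, and the red aged points are highest in nearly every column, H2-DMa and Ciita in type R being exceptions.

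In the fit with the library as a block, 6 of 6 tested genes were higher in arterial than in sinusoidal cells, where 33.2% of all 11132 genes were called higher and 32.8% lower. Ciita was too low to be tested between types. Arterial cells had 5.87-fold more Cd74 than sinusoidal cells (log2 difference 2.55 ± 0.21 SE, edgeR adjusted p = 7.11e-14, n = 10 libraries). For the I-A chains the log2 differences were 2.58 ± 0.14 (H2-Aa) and 2.81 ± 0.15 (H2-Ab1), and for H2-Eb1 2.47 ± 0.14. The DM genes differed by 1.87 ± 0.16 (H2-DMa) and 2.30 ± 0.15 (H2-DMb1). Over the 6 genes the median log2 difference was 2.51, beside -0.01 over all genes tested.

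The other pairs of types gave 6 of 6 called genes each, in the same order. Arterial exceeded metaphyseal cells by 1.14 (H2-DMa) to 1.76 (Cd74) on the log2 scale, with 23.5% of all genes called higher. Arterial exceeded type R cells by 3.02 (H2-DMa) to 3.84 (H2-Ab1), with 18.1% called higher. Metaphyseal exceeded sinusoidal cells by 0.72 (H2-DMa) to 1.27 (H2-Ab1), with 30% called higher, and the Cd74 difference of 0.79 ± 0.20 had an edgeR adjusted p of 0.00103. It was not called by DESeq2 (0.48, adjusted p = 0.24).

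Type R cells were lowest, though the step from sinusoidal cells was less secure. Metaphyseal exceeded type R cells by 1.85 (Cd74) to 2.31 (H2-Ab1), with 22.6% of genes called higher. Sinusoidal exceeded type R cells by 1.00 (H2-Eb1) to 1.36 (H2-DMb1), with 29.6% called higher. Cd74 differed by 1.06 ± 0.31 (edgeR adjusted p = 0.00389). DESeq2 called 3 of the 6 genes, against 33.8% of all genes. Without both aged libraries the Cd74 difference was 0.82 and 1 of 6 genes was called, against 29.1%. In cells without blood cell markers it was 0.40 and not called. Type R cells were also shallower than sinusoidal cells in every library but PTH replicate 1, with medians of 1760.5 to 4202 against 3402 to 7216.5 UMIs per cell. With each cell thinned to 1000 UMIs the Cd74 difference was 1.42 (edgeR adjusted p = 2.42e-05).

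Marker lists of blood cells differed between types. The summed level of 7 pan-haematopoietic markers (Tyrobp, Fcer1g, Laptm5, Coro1a, Cd52, Cd53 and Spi1) was 149 to 351 CPM in arterial, 296 to 911 CPM in metaphyseal, 166 to 589 CPM in sinusoidal and 14.9 to 102 CPM in type R cells. The 4 B cell markers (Cd79a, Cd79b and Ms4a1 among them) summed to 0 to 6.19 CPM in arterial, 0.419 to 29.2 CPM in metaphyseal, 0.272 to 14.0 CPM in sinusoidal and 0 to 63.6 CPM in type R cells. The 8 dendritic cell and macrophage markers summed to 10.1 to 37.5 CPM in arterial, 7.29 to 38.6 CPM in metaphyseal, 11.3 to 28.8 CPM in sinusoidal and 4.13 to 24.2 CPM in type R cells. In aged replicate 1 this list had the order of class II, with 35.1, 31.4, 28.8 and 13.9 CPM, and in aged replicate 2 it was also higher in arterial and metaphyseal cells (37.5 and 38.6 CPM) than in sinusoidal and type R cells (24.6 and 24.2 CPM). The part of this in the result was not tested beyond the cells that follow. In cells without a UMI of any pan-haematopoietic, B cell, dendritic cell or macrophage marker, arterial Cd74 was 210.0 and 103.8 CPM in adult and 2166 and 2078 CPM in aged libraries. Such cells were 52.3% and 53.4% of juvenile, 40.8% and 39.5% of adult and 60.8% and 60.1% of aged ECs. They were 35.3% and 46.9% of PTH and 52.6% and 53.1% of alendronate ECs. Cells with fewer UMIs meet this rule more easily, and depth was not matched among them.

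The share of cells with a class II UMI gave the same order. Each cell was thinned to 1000 UMIs, which removes differences in depth, and the share with a UMI of H2-Aa, H2-Ab1 or H2-Eb1 was averaged over the 10 libraries. It was 18.4% ± 19.5 (SD, n = 10) in arterial, 9.42% ± 11.5 in metaphyseal, 5.45% ± 8.26 in sinusoidal and 1.65% ± 2.12 in type R cells. The large SDs are the differences between groups. Within libraries arterial exceeded metaphyseal cells by 9.0 percentage points and sinusoidal cells by 13.0, each higher in 10 of 10 libraries (exact two-sided paired permutation test, p = 0.00195, adjusted over 6 pairs 0.00234). That is the smallest p the sign flips of 10 libraries can give. Both libraries of a group come from the same pool, so they are not independent units of this test. Sinusoidal exceeded type R cells by 3.80 points, higher in 9 of 10 libraries (exact paired permutation p = 0.00977). Without aged replicate 1 that difference was 2.36 points (exact paired permutation p = 0.0195).

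Free RNA gives a few UMIs in cells that lack a gene. Of 98 erythroid cells in the same libraries, which should lack class II, 2 had a classical class II UMI at 1000 UMIs a cell (2.04%, exact 95% interval 0.248 to 7.18%), and 0 of 98 had a Cd74 UMI (interval up to 3.69%). Their median depth was 9216 UMIs before thinning. Of the 98 cells, 63 were aged and 5 adult, so the level is not resolved by group. The type R mean joins 5.22% ± 0.670 (n = 2) in aged with 0 to 1.93% in the other groups. Of the 63 aged erythroid cells 1 had a classical class II UMI (1.59%, exact interval 0.0402 to 8.53%). The aged type R share lies inside this interval, so no expression is read from these type R shares in any group. Without thinning, aged type R cells held 51.7 and 80.9 CPM of H2-Aa, 54.7 and 71.5 CPM of H2-Ab1 and 33.8 and 71.5 CPM of H2-Eb1. The aged erythroid cells held 17.4 CPM of these genes together (exact Poisson 95% interval 9.93 to 28.2). They were deeper, with a median of 14957 against 3412 and 3522 UMIs, and the part of free RNA was not tested. These intervals cover counting error only.

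Age gave the largest differences between groups. Cd74 stood at 7.22 and 3.69 CPM in the juvenile, 65.6 and 78.3 CPM in the adult and 1073 and 1064 CPM in the aged libraries, summed over all ECs. H2-Aa stood at 1.49 and 1.59 CPM in juvenile, 31.3 and 25.8 CPM in adult and 296.2 and 294.7 CPM in aged libraries. H2-Ab1 stood at 4.19 and 4.71, then 54.6 and 46.8, then 337.5 and 328.4 CPM. For each of the 7 genes, both juvenile libraries lay below both adult libraries and both aged libraries lay above them. Of all genes tested, 40.7% lay below adult in this way in juvenile and 56.7% above it in aged libraries.

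The other genes followed the same steps. H2-Eb1 was at 0.551 and 0.454 CPM in juvenile, 12.7 and 10.3 CPM in adult and 241 and 258 CPM in aged libraries. H2-DMa was at 2.42 and 3.29, 15.5 and 13.9, and 43.7 and 48.9 CPM, the smallest change with age of the set. H2-DMb1 was at 0.772 and 0.511, 9.85 and 10.3, and 80.4 and 80.5 CPM. Ciita, the transactivator, was at 0.0551 and 0, 0.995 and 1.17, and 11.1 and 13.0 CPM, so it was nearly undetected in juvenile ECs, with 1 and 0 UMIs.

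**Figure D2:**
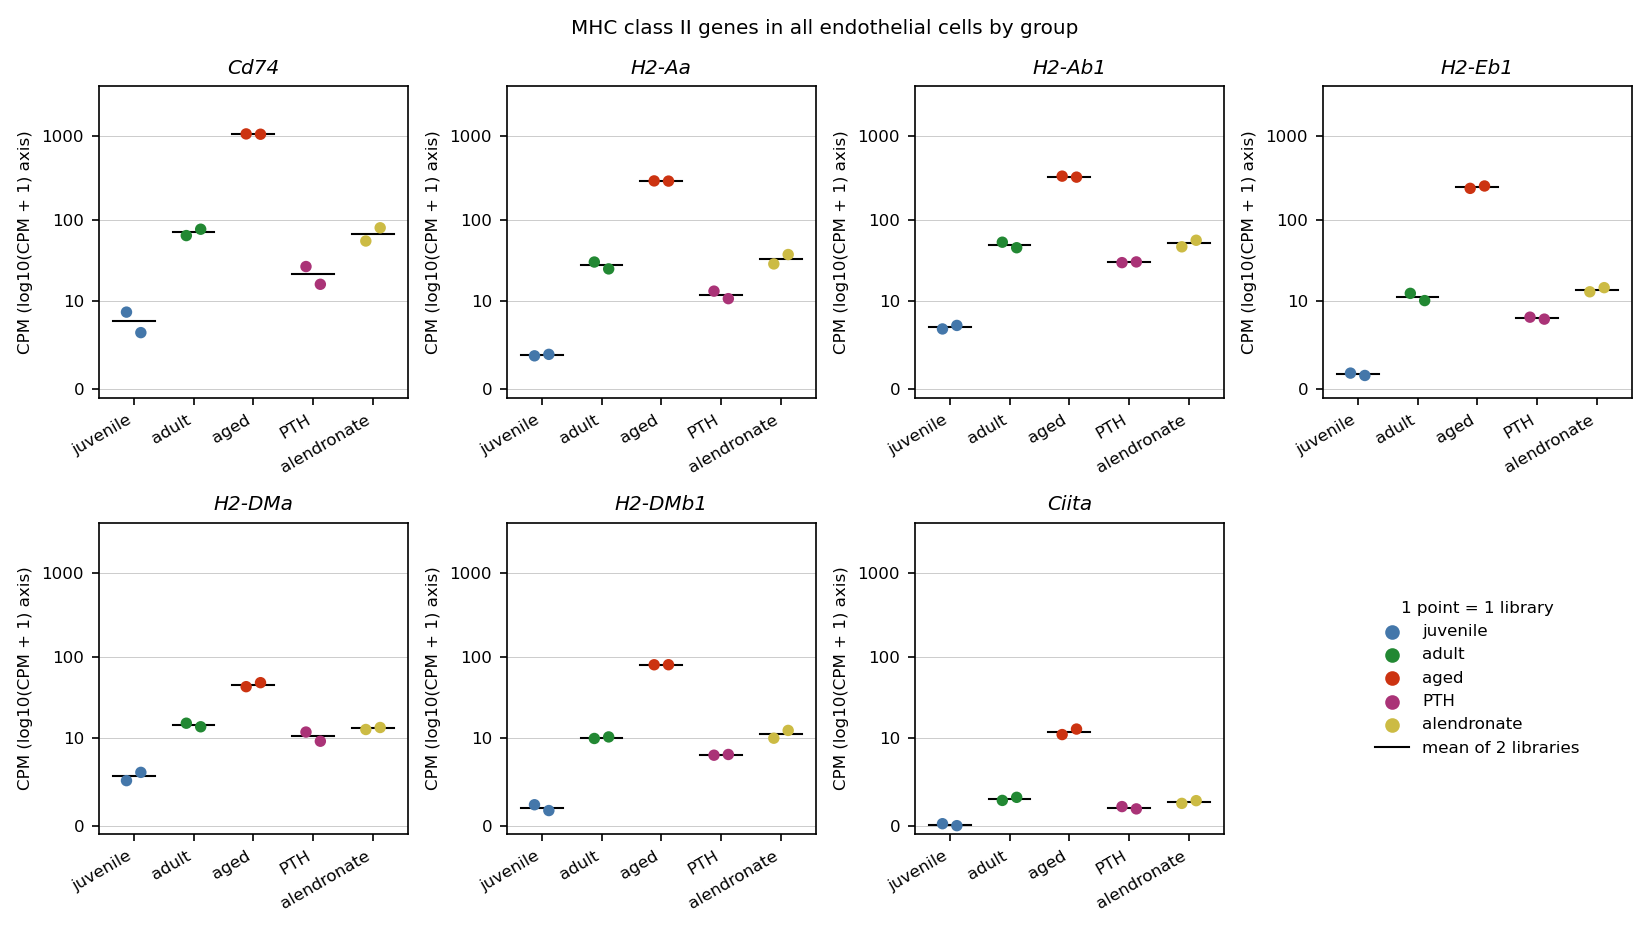
Level of each gene in all ECs of a library (CPM, on a log10(CPM + 1) axis) by group. Points are libraries and lines are means of 2 libraries. Juvenile points lie lowest and aged points highest for all 7 genes, with Cd74 at 1073 and 1064 CPM in aged libraries, and PTH points lie below the adult ones.

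From adult to aged, 7 of 7 genes rose, where 37.6% of 15958 genes were called higher and 36% lower. Cd74 rose 11.9-fold (log2 difference 3.57 ± 0.18, edgeR adjusted p = 3.54e-10, n = 2 libraries each). H2-Eb1 rose 17.3-fold (4.12 ± 0.08, adjusted p = 8.71e-14 by edgeR), and 0.990% of all genes had a larger rise. H2-Aa rose by 3.05 ± 0.11, H2-Ab1 by 2.39 ± 0.08, H2-DMb1 by 2.68 ± 0.10, Ciita by 3.15 ± 0.23 and H2-DMa by 1.34 ± 0.12 on the log2 scale. The median over the 7 genes was 3.05, against 0.03 over all genes. All contrasts between groups share the adult libraries.

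From adult to juvenile, 7 of 7 genes were lower, where 20.4% of all genes were called lower and 20.3% higher. Cd74 differed by -3.66 ± 0.25 on the log2 scale (12.7-fold lower, edgeR adjusted p = 7.12e-08). H2-Aa differed by -4.16 ± 0.19, H2-Ab1 by -3.46 ± 0.11, H2-Eb1 by -4.45 ± 0.19, H2-DMb1 by -3.91 ± 0.19 and H2-DMa by -2.31 ± 0.16. Between 0.326% and 2.52% of all genes had a lower log2 difference than these 7 genes.

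In a sum over all ECs, more cells with class II and more class II RNA per cell cannot be told apart, and the mix of types shifted. Arterial cells were 6.64% and 7.10% of adult ECs, 15.4% and 16.8% of aged ECs and 3.4% and 4.2% of juvenile ECs. In the aged libraries arterial cells held 32.9% and 35.6% of all Cd74 UMIs. The age comparison was therefore repeated within each type.

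The rise with age was present in all 4 types. In arterial cells Cd74 was at 165.5 and 116.0 CPM in adult and 2236 and 2181 CPM in aged libraries (log2 difference 3.90 ± 0.20, edgeR adjusted p = 5.81e-14). In metaphyseal cells it was at 52.6 and 54.0 CPM in adult and 1151 and 1217 CPM in aged libraries (4.31 ± 0.10, edgeR adjusted p = 1.86e-20). In sinusoidal cells it was at 16.7 and 35.9 CPM in adult and 447 and 449.5 CPM in aged libraries (3.72 ± 0.16, edgeR adjusted p = 4.70e-15). For Cd74 the groups did not overlap in any of these types, and the share of all genes without overlap was not computed within types. Of the genes, 7 of 7 were called higher in each. Ciita passed the filter on low counts there only through the aged libraries, with adult sums of 2 to 8 UMIs. Its call is therefore not separate support. Of all genes, 25.1% were called higher in arterial, 29.5% in metaphyseal and 32.8% in sinusoidal cells.

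In type R cells the rise was also called. Cd74 was at 31.0 and 4.24 CPM in adult and 169 and 250.2 CPM in aged libraries (3.44 ± 0.37, edgeR adjusted p = 1.81e-09). Without adult replicate 1 the difference was 5.52. H2-Aa, H2-Ab1 and H2-Eb1 were also called higher, so that 4 of 4 tested genes were called, against 21.5% of all genes. These other genes passed the filter on low counts only through the aged libraries, where they are high. The count of 4 of 4 was thus partly set by the filter and is not support beyond Cd74. Of the tested genes, 1 was called at 1000 UMIs a cell, against 22.5% of all genes, and DESeq2 called 3, against 13.5%. H2-DMa did not separate, with 6.89 and 17.0 CPM in adult and 6.96 and 6.31 CPM in aged type R cells, and was too low to be tested.

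The lower juvenile levels were seen in 3 of the 4 types. Cd74 was at 8.44 and 33.4 CPM in juvenile arterial cells (-2.68 ± 0.40 against adult, edgeR adjusted p = 4.47e-05), and at -4.05 without juvenile replicate 2. In metaphyseal cells it was at 2.68 and 1.63 CPM (-4.59 ± 0.22) and in sinusoidal cells at 4.38 and 3.42 CPM (-2.71 ± 0.29). The genes called lower were 6 of 7 in arterial, 7 of 7 in metaphyseal and 7 of 7 in sinusoidal cells, against 4.86%, 12.2% and 16.8% of all genes. Juvenile type R cells held no Cd74 UMI, and 0 of 4 tested genes were called there by edgeR (0 also at an unadjusted p under 0.05), against 1.47% of all genes. DESeq2 gave no adjusted p for these genes. In juvenile arterial cells the Cd74 levels rest on 5 and 22 UMIs. The 4 lymphatic markers (Prox1, Lyve1, Ccl21a and Pdpn) summed to 473 CPM in arterial cells of juvenile replicate 1, the lower of both, and to 0 in replicate 2, against 1.55 to 4.6 CPM in adult, and the part of this in the result was not tested.

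Blood cell markers were also lower in juvenile ECs. Of the pan-haematopoietic list 7 of 7 genes and of the B cell list 3 of 4 were lower than in adult ECs by edgeR. In cells without a UMI of any blood cell list, Cd74 was at 0.705 and 2.07 CPM in juvenile, 55.4 and 44.2 CPM in adult and 959 and 879 CPM in aged libraries, so the groups did not overlap there either.

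**Figure D3:**
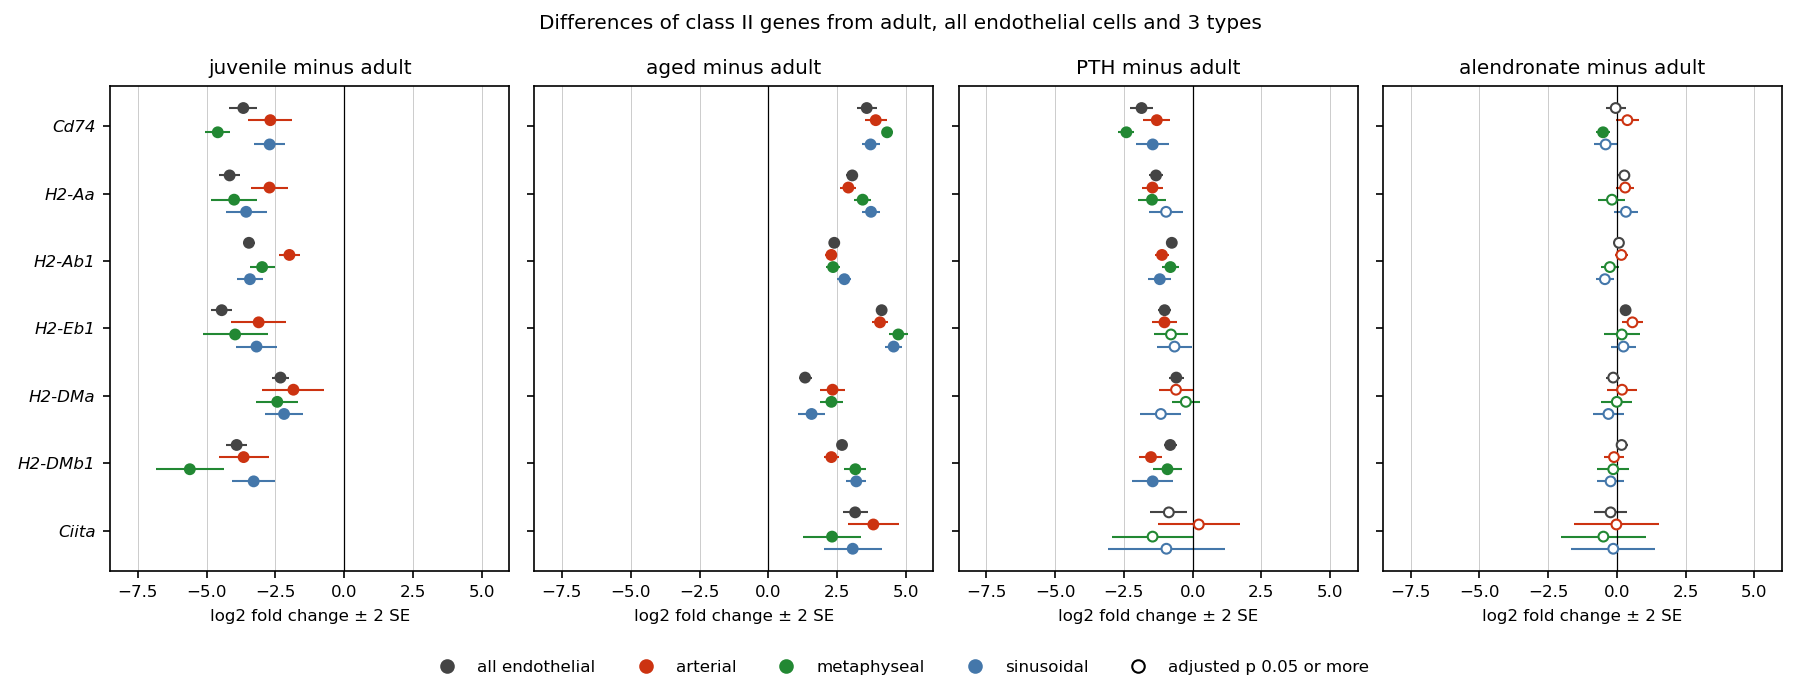
Log2 difference from adult (± 2 SE) of each gene for juvenile, aged, PTH and alendronate, in all ECs and in arterial, metaphyseal and sinusoidal cells. Filled symbols have an edgeR adjusted p under 0.05, and Ciita in juvenile cells is left out because its libraries are at or near 0. All aged symbols lie to the right of 0 and all juvenile symbols to the left, PTH symbols lie mostly to the left and alendronate symbols scatter around 0.

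Under PTH, class II RNA was lower than in untreated adults. Cd74 stood at 27.6 and 16.6 CPM, against 65.6 and 78.3 CPM in adult, a difference of -1.86 ± 0.21 on the log2 scale (3.62-fold lower, edgeR adjusted p = 1.58e-05). H2-Aa stood at 13.6 and 10.9 CPM (-1.33 ± 0.13), H2-Ab1 at 30.8 and 31.4 CPM (-0.76 ± 0.09) and H2-Eb1 at 6.16 and 5.79 CPM (-1.02 ± 0.12). H2-DMa was lower by -0.59 ± 0.13 and H2-DMb1 by -0.81 ± 0.12. Thus 6 of 7 genes fell, against 13% of all genes called lower and 12.8% higher, while Ciita had 0.684 and 0.582 CPM (adjusted p = 0.076 by edgeR). Both PTH libraries lay below both adult libraries for all 7 genes, as they did for 24.4% of all genes tested.

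Blood cell RNA moved with this difference in the sum of all ECs, and B cell RNA also moved with it within types. The pan-haematopoietic list was 7 of 7 lower under PTH by edgeR (median log2 difference -1.02). In all ECs its sum was 571 to 604 CPM, against 675 to 684 CPM in adult. It was 320 to 351 against 303 to 347 CPM in arterial and 848 to 867 against 890 to 911 CPM in metaphyseal cells. In sinusoidal cells it was 398 to 414 against 551 to 589 CPM, and in type R cells 38.4 to 100 against 82.6 to 102 CPM. The B cell list was 4 of 4 lower (median -6.93), at 1.66 and 1.78 CPM under PTH against 23.1 and 47.1 CPM in adult ECs. Its sum was lower within types too, at 0 to 0.259 against 3.28 to 6.19 CPM in arterial cells. It was 0.743 to 0.803 against 3.37 to 29.2 CPM in metaphyseal and 0.86 to 1.62 against 10.4 to 14.0 CPM in sinusoidal cells. In type R cells it was 0 against 17.2 to 63.6 CPM. The part of this in the results within types was not tested beyond the cells without such UMIs. In cells without any UMI of the haematopoietic lists, Cd74 stood at 59.2 and 22.7 CPM under PTH and 55.4 and 44.2 CPM in adult, so that the groups overlapped (-0.65, edgeR adjusted p = 0.083). These cells were 35.3% and 46.9% of PTH and 40.8% and 39.5% of adult ECs. There, 2 of 7 genes were lower, against 7.33% of all genes.

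Mesenchymal RNA moved with it as well. The 6 mural and mesenchymal markers (Col1a1, Col1a2, Pdgfra, Pdgfrb, Lepr and Cspg4) summed to 205 and 174 CPM in PTH ECs, against 28.3 to 33.5 CPM in adult. In PTH replicate 2 most of this lay in cells without a type (531 CPM) and in replicate 1 in sinusoidal cells (696 CPM). In arterial cells the list was at 21.3 and 28.8 CPM, within the adult range of 21.7 to 34.0 CPM but for the lower value. The part of this in the result was not tested.

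Within types, 5 of 7 genes in arterial, 4 of 7 in metaphyseal and 3 of 7 in sinusoidal cells were called lower under PTH than in adult. Of all genes, 2.09%, 4.24% and 2.92% were. By DESeq2 it was 4, 2 and 1 genes, against 1.83%, 1.87% and 1.28% of all genes. In arterial cells Cd74 was at 87.5 and 42.8 CPM (-1.30 ± 0.24 against adult, edgeR adjusted p = 0.00143). Without adult replicate 1 this was -0.998 (adjusted p = 0.0753) and without PTH replicate 2 it was -0.71 (adjusted p = 0.155), neither called by edgeR. In arterial cells without blood cell markers the groups overlapped, with 163 and 75.0 CPM under PTH and 210.0 and 103.8 CPM in adult, and the call was lost (-0.73, edgeR adjusted p = 0.177). Arterial H2-Aa was at 36.8 and 23.6 CPM, against 85.4 and 64.2 CPM in adult, and fell by 1.46. H2-Ab1 at 70.6 and 64.6 CPM, against 151.7 and 133.0 CPM, fell by 1.11, and H2-DMb1 at 12.5 and 10.6 CPM, against 30.2 and 33.3 CPM, fell by 1.51. In arterial cells without blood cell markers H2-Aa was at 36.7 to 73.1 CPM under PTH and 64.2 to 117 CPM in adult. There H2-Ab1 was at 84.6 to 112 against 138 to 201 CPM, and H2-DMb1 at 13.5 to 20.6 against 35.9 to 36.0 CPM. The lymphatic list was at 7.36 and 166 CPM in PTH arterial cells, the higher value in replicate 2, which had the lower Cd74, and the part of this was not tested.

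Metaphyseal Cd74 gave the firmest of the PTH differences. It was at 12.0 and 9.23 CPM, against 52.6 and 54.0 CPM in adult (-2.41 ± 0.15, edgeR adjusted p = 8.54e-11). In sinusoidal cells it was at 12.9 and 8.26 CPM, against 16.7 and 35.9 CPM (-1.45 ± 0.30, edgeR adjusted p = 0.00292). Without PTH replicate 2 the sinusoidal value was -1.03 and no longer called by edgeR, and without adult replicate 2 it was -0.82. In the haematopoietic-free cells 3 genes were lower in arterial, 3 in metaphyseal and 1 in sinusoidal cells, against 1.2%, 1.34% and 1.38% of all genes in those fits. Type R gave 0 of 4 calls by edgeR (0 also at an unadjusted p under 0.05), against 1.15% of all genes, and no adjusted p by DESeq2. Sinusoidal cells of PTH replicate 1 also held 426 CPM of the bone matrix gene Col1a1, against 0.816 to 7.61 CPM in the other libraries, and the part of this in the result was not tested.

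Under alendronate few class II differences were called. Cd74 stood at 56.4 and 81.5 CPM, on either side of the adult 65.6 and 78.3 CPM (-0.05 ± 0.18, edgeR adjusted p = 0.892). H2-Eb1 was higher, at 13.3 and 15.0 CPM against 12.7 and 10.3 CPM in adult (0.32 ± 0.10, edgeR adjusted p = 0.0314). Thus 1 of 7 genes was called higher, against 12.7% of all genes called higher and 10.1% lower. DESeq2 called 0. In all ECs dendritic cell and macrophage markers were at 45.6 to 49.4 CPM, against 27.3 to 30.1 CPM in adult. Lymphatic markers were at 40.0 to 41.2 against 16.3 to 21.8 CPM, and mural and mesenchymal ones at 44.1 to 73.6 against 28.3 to 33.5 CPM. Pan-haematopoietic markers were lower (494 to 500 against 675 to 684 CPM), as were B cell markers (14.4 to 21.7 against 23.1 to 47.1 CPM). The part of these lists in the result was not tested. Within types, metaphyseal Cd74 was lower, at 30.1 and 43.2 CPM (-0.50 ± 0.13, edgeR adjusted p = 0.0145), against 4.53% of all genes called lower there. That call was lost without adult replicate 1 (-0.52), adult replicate 2 (-0.48) or alendronate replicate 1 (-0.26), and without alendronate replicate 2 the value was -0.77. With a type marker sum of at least 1 in place of 2 the difference turned to 0.28, and with at least 4 it was -0.18, neither called. In metaphyseal cells pan-haematopoietic markers were at 600 to 692 against 890 to 911 CPM in adult. B cell markers were at 1.67 to 2.14 against 3.37 to 29.2 CPM. Dendritic cell and macrophage markers were higher there (15.0 to 16.4 against 7.29 to 9.84 CPM). So were mural and mesenchymal ones (26.4 to 37.5 against 10.9 to 14.6 CPM), and the part of these lists was not tested. In arterial, sinusoidal and type R cells 0 of the genes were called by edgeR, against 3.4%, 13.9% and 1.57% of all genes. DESeq2 also called 0 in arterial and sinusoidal cells and gave no adjusted p in type R cells. With an unadjusted edgeR p under 0.05 there was 1 gene in each of these types, H2-Eb1 in arterial, H2-Ab1 in sinusoidal and Cd74 in type R cells, each named because of that p. Sinusoidal Cd74 was at 15.6 and 23.1 CPM, and without adult replicate 1 it was called lower (-0.87, edgeR adjusted p = 0.000318), whereas without adult replicate 2 the difference was 0.22. It was also called lower under 4 other settings (-0.41 to -0.73). Arterial Cd74 was at 140.3 and 223 CPM, against 165.5 and 116.0 CPM in adult (0.38, edgeR adjusted p = 0.403), and was called higher with no filter on low counts (0.40) and with a type marker sum of at least 4 (0.97).

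Single cells show how the RNA was spread. In the aged libraries 41.7% and 40.1% of ECs had at least 1 Cd74 UMI, and 23.9% and 23.3% had at least 5. In the adult libraries 5.50% and 5.36% had at least 1, and 0.799% and 1.13% had at least 5. The 1% of cells with the most Cd74 held 15.0% and 16.1% of all Cd74 UMIs in aged libraries, but 69.9% to 85.5% in the adult, PTH and alendronate libraries. For H2-Ab1 the top 1% of cells held 34.3% to 47.5% of UMIs in the 12-week groups and 14.1% to 14.4% in aged libraries. At low levels most cells have no UMI by sampling alone, so the number of cells that express a gene cannot be read from these shares.

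At 1000 UMIs a cell, the share of all ECs with a Cd74 UMI was 0.237% ± 0.003 (SD, n = 2 in this and the following shares) in juvenile, 2.89% ± 0.045 in adult and 28.2% ± 0.280 in aged libraries. It was 1.05% ± 0.172 under PTH and 2.66% ± 0.206 under alendronate. In arterial cells it was 6.60% ± 1.32 in adult and 51.4% ± 1.77 in aged libraries, in metaphyseal cells 2.67% ± 0.528 and 31.5% ± 0.932, and in sinusoidal cells 1.51% ± 0.142 and 18.7% ± 0.164. In aged type R cells it was 5.0% ± 0.751. With 2 libraries a group, an exact permutation test cannot give a p under 0.333, so these shares are given without a test. With 5 adult erythroid cells (0 with a Cd74 UMI, exact interval up to 52.2%), no adult background is set for these shares.

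**Figure D4:**
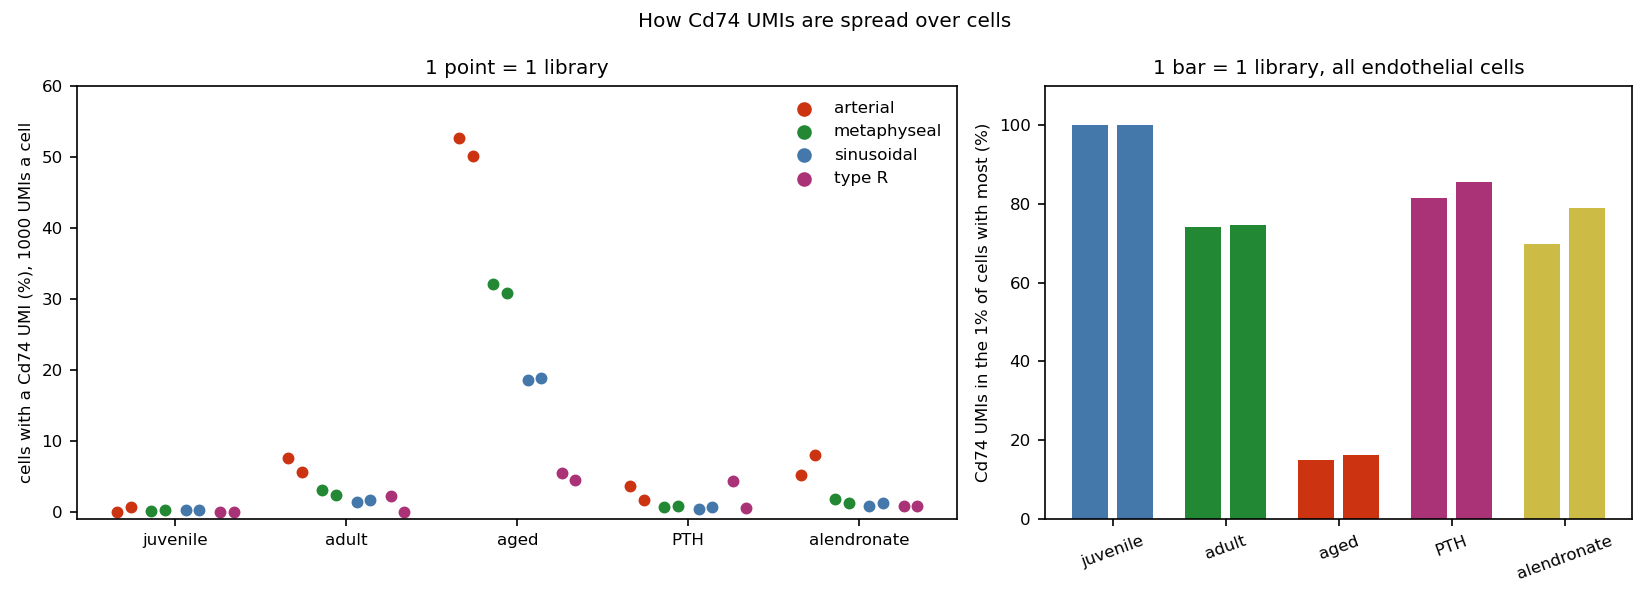
Left, percentage of cells of each type with a Cd74 UMI after thinning to 1000 UMIs, 1 point per library. Right, percentage of all Cd74 UMIs held by the 1% of ECs with the most, 1 bar per library. The aged libraries have the highest shares (arterial 50.1% and 52.6%) and the lowest concentration (15.0% and 16.1%).

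Within the aged libraries the genes were found together. Of 1084 aged ECs with at least 5 Cd74 UMIs, 97.5% also had a UMI of H2-Aa, H2-Ab1 or H2-Eb1, against 21.9% of the 2716 cells with none. Ciita was found in 15.6% of the former and 1.77% of the latter. B cell markers were found in 0.461% of the former and 0.295% of the latter, and the shares with the other blood cell lists are not given here. Deeper cells have more UMIs of every gene, so these shares are descriptions with no test.

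In the adult, juvenile and alendronate libraries, some of the few Cd74-rich ECs carried B cell RNA. Of 105 adult ECs with at least 5 Cd74 UMIs, 25 (23.8%) had a UMI of the B cell list, against 2.20% of those with none. It was 8 of 9 in juvenile, 18 of 129 under alendronate and 0 of 42 under PTH. B cells themselves, kept by having no endothelial UMI, held 5225 CPM of Cd74 in adult libraries (exact Poisson 95% interval 4850 to 5621, counting error only), with 7067 CPM in replicate 1 and 2951 CPM in replicate 2. In the adult libraries the ECs without a type were 30.9% and 34.0% of cells and held 54.7% and 58.6% of Cd74 UMIs.

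Other cells in the aged libraries held class II RNA to different degrees. The 63 erythroid cells of the aged libraries held 3 Cd74 UMIs among 921272, which is 3.26 CPM (exact Poisson 95% interval 0.672 to 9.52), against 1073 and 1064 CPM in aged ECs. Their median depth was 14957 UMIs, against 4932.5 and 4809 in aged ECs. The 11 granulocyte precursors of these libraries held 34 Cd74 UMIs, or 173 CPM (interval 120 to 242), all in replicate 1 (359 CPM in 7 cells, against 0 in 4 cells of replicate 2). Aged B cells were at 4425 and 10560.5 CPM of Cd74. Aged dendritic cells or macrophages were at 8948 CPM in 9 cells of replicate 1 and 48.0 CPM in 3 cells of replicate 2.

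In aged ECs the pan-haematopoietic list stood at 186 and 202 CPM, against 684.1 and 675.5 CPM in adult ECs, with 7 of 7 of its genes lower by edgeR. The B cell list stood at 3.95 and 1.08 CPM, against 23.1 and 47.1 CPM, with 4 of 4 lower. Both lists moved opposite to class II with age. The sums of other lists were larger in aged libraries in some of the cells, and the part of these in the result was not tested. The mural and mesenchymal list was at 28.3 to 33.5 CPM in adult and 48.2 to 52.6 CPM in aged ECs, and at 0 to 4.24 and 28.4 to 30.8 CPM in type R cells. The lymphatic list was at 3.01 to 3.04 CPM in adult and 20.4 to 20.9 CPM in aged sinusoidal cells. In arterial cells both of these lists went the other way. There the mural and mesenchymal list was at 21.7 to 34.0 CPM in adult and 12.9 to 14.0 CPM in aged libraries. The lymphatic list was at 1.55 to 4.6 and 0.925 to 1.44 CPM. The 8 markers of dendritic cells and macrophages gave 1 higher and 3 lower of 5 tested, and their sum moved in the same direction as class II. It was 27.3 to 30.1 CPM in adult and 32.3 to 41.9 CPM in aged ECs, 10.1 to 11.8 and 35.1 to 37.5 CPM in arterial, 7.29 to 9.84 and 31.4 to 38.6 CPM in metaphyseal, 14.4 to 19.3 and 24.6 to 28.8 CPM in sinusoidal and 4.24 to 6.89 and 13.9 to 24.2 CPM in type R cells. In arterial cells Clec9a, a dendritic cell receptor, was called higher, at 7.88 and 4.64 CPM in adult and 26.3 and 31.3 CPM in aged libraries. In arterial cells of these 4 libraries the other markers were at 2.63 to 7.86 CPM (Lyz2) and 0 to 1.55 CPM (Flt3, Xcr1, Siglech and Csf1r), with Itgax and Adgre1 at 0. The part of these cells in the result was not tested beyond the haematopoietic-free cells above.

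Genes upstream and downstream of class II moved in part with it. In aged ECs, 10 of 14 genes of the interferon-γ axis were higher and 3 lower, against 37.6% and 36% of all genes. The shares of all genes called in the other contrasts of all ECs were 20.3% higher and 20.4% lower in juvenile, 12.8% and 13% under PTH and 12.7% and 10.1% under alendronate, and they are the background for each count in the paragraphs that follow. Gbp4, an interferon-induced GTPase, rose by 2.30, the chemokine Cxcl9 by 1.76 and the transcription factor Irf1 by 0.51. The receptor chains Ifngr1 and Ifngr2 and the kinase Jak1 were lower. In juvenile ECs 11 of 14 were lower and 3 higher, with Cxcl9 at -3.18 and Irf1 at -0.94. Under PTH 8 of 14 were lower and 1 higher, and under alendronate 3 were lower and 3 higher.

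Between types, 5 of the 14 genes of the interferon-γ axis were higher and 6 lower in arterial than in sinusoidal cells (all genes 33.2% and 32.8%), with Gbp4 higher by 1.64 and Irf1 by 0.74 but Cxcl9 at -3.88 and Cxcl10 at -4.54. The median log2 difference of the list was 0.01.

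Of the factors that sit on the class II promoters, 4 of 7 were higher and 1 lower in aged ECs (all genes 37.6% and 36%). Rfx5, the X box factor whose loss abolishes class II, was at 1.14 and 1.44 CPM in adult and 5.77 and 6.71 CPM in aged libraries (1.95 on the log2 scale). Creb1 rose by 0.69, and the Y box subunit Nfyc fell by 0.54. Under PTH 1 of 7 was higher and 0 lower, and in juvenile ECs 1 was higher and 2 lower. Between arterial and sinusoidal cells 2 of 6 were higher and 2 lower, with Rfxank higher by 0.51.

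Of the endosomal enzymes that process antigen and the invariant chain, 6 of 7 were lower in aged ECs (36% of all genes). Ctss, the protease that trims the invariant chain in professional presenting cells, was at 6.91 and 6.91 CPM in adult and 1.74 and 0.925 CPM in aged ECs (-2.69 on the log2 scale). Lgmn was at -1.41, Ctsl at -1.23 and Ctsd at -0.85, and the thiol reductase Ifi30 at -0.74. Sppl2a, the intramembrane protease that clears the last invariant chain fragment, rose by 1.39. In arterial cells 4 of 6 were lower than in sinusoidal cells, with Ctsl at -3.44, Lgmn at -2.72 and Ctsb at -1.64, and Sppl2a was higher by 0.19. Under PTH 5 of 7 were lower.

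Other class II genes were sparse. H2-DMb2 was at 0.746 and 1.17 CPM in adult and 5.69 and 4.40 CPM in aged ECs (2.08 on the log2 scale). H2-Oa, a chain of the DM inhibitor found mainly in B cells, was lower in aged ECs by -2.65, and no UMI of H2-Ea-ps, the defective I-E α chain gene, was counted in any library. Of the class II ubiquitin ligases March1 and March8, 0 of 2 were called with age by edgeR (0 also at an unadjusted p under 0.05), and March8 was lower under PTH by -0.44.

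Ligands that set the outcome of presentation were uneven. Cd80 and Cd86, the ligands of CD28, were at 0 to 0.170 CPM and 0 to 0.249 CPM in ECs of any library. Cd274, which encodes the inhibitory ligand PD-L1, was at 4.18 and 5.43 CPM in adult and 36.7 and 33.3 CPM in aged ECs (2.55 on the log2 scale) and lower in juvenile ECs (-2.66). Icosl rose by 1.15 with age and Cd40 fell by 0.78. In arterial cells Icosl was higher than in sinusoidal cells by 4.35, Cd40 by 1.77 and Cd274 by 1.48. Cd274 was however lower in arterial than in type R cells (-2.39), the reverse of class II.

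Of 5 class I genes, 3 were higher and 2 lower in aged ECs. H2-K1 rose by 0.84, Tap1 by 0.91 and Nlrc5, the class I transactivator, by 1.76, while B2m was at -1.37 and H2-D1 at -0.21. In juvenile ECs 5 of 5 were lower, with H2-K1 at -2.51, and under PTH 5 of 5 were lower, with Nlrc5 at -0.57. Between arterial and sinusoidal cells 2 of 5 were higher and 2 lower, with H2-D1 at 0.75 and B2m at -0.61.

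The genes whose level over the 40 type and library sums was most like that of the 7 genes together were Gm12250 (Pearson r = 0.91), Mctp1 (0.88), Lifr (0.86), Clec2d (0.86), Gm26917, Plec, Zfyve9, Nfic, Clic4 and Tmf1 (the last 0.84), among 6643 genes with a mean of at least 20 CPM. Correlations were taken on log2(CPM + 10). The sums share libraries, and the aged sums of arterial, metaphyseal and sinusoidal cells are highest, so the values are a description. Over the 32 sums without the aged libraries r was 0.74 for Gm12250, 0.77 for Clic4 and 0.52 for Tmf1.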

How the data were processed

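Single-cell 3′ libraries (10x Chromium) were deposited as tables of raw UMI counts per gene and cell. The authors extracted barcodes with UMI-tools 1.1.2, aligned reads with STAR 2.7.10a to mm10 and assigned them to genes with featureCounts 2.0.3 of Subread. The annotation release, strand setting and kit version per library are not given in the sources used here. From these counts, cells were filtered and typed by marker UMIs, summed per library and tested with edgeR 4.0.16 (filterByExpr, TMM, quasi-likelihood) in R 4.3.3. DESeq2 1.42.0 was an alternative, with size factors, no filter, other marker minimums, thinning, removal of cells with blood markers or of the deepest 5%, and each library left out. The interaction tests and the fits without the aged or PTH libraries were added after seeing the data. No doublet caller was run. Gene symbols starting with the letter U (276), listed only in aged tables, were left out. The genes named are the 7 members and listed pathway genes with the largest called changes. Members and lists were chosen with earlier results of these data known. Some genes of the lists are counted in them but not reported by name here. Scripts were tested on simulated data.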

Additional observations from a re-analysis of the deposited data

Results flagged for a closer look

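Differences between types in the response to age or treatment were tested as interactions in edgeR over the sums per type and library, with the library as a block, a test chosen after seeing the data. Of 144 differences, 4 passed an adjusted p of 0.05, 3 of them between arterial and sinusoidal cells with age, where 6.21% of all genes were called lower, and 1 between metaphyseal and sinusoidal cells in juvenile mice, where 4.08% were. The rise from adult to aged was smaller in arterial than in sinusoidal cells for H2-Aa (-0.92 ± 0.24 SE on the log2 scale, edgeR adjusted p = 0.00349), for H2-Ab1 (-0.57 ± 0.18, edgeR adjusted p = 0.0174) and for H2-DMb1 (-1.002 ± 0.26, edgeR adjusted p = 0.00398). Arterial cells nevertheless kept the higher level in both groups, with H2-DMb1 at 165 and 157 CPM in aged arterial cells against 52.8 and 47.8 CPM in aged sinusoidal cells. The juvenile level of Cd74 lay further below adult in metaphyseal than in sinusoidal cells (-1.87 ± 0.62, edgeR adjusted p = 0.0489), on 10 and 6 UMIs in the juvenile metaphyseal sums. With cells thinned to 1000 UMIs none of these differences passed, at -0.76 (adjusted p = 0.165), -0.61 (0.142), -1.31 (0.126) and -1.86 (0.237) in the same order. In cells without blood cell markers the first 3 were -1.32, -0.86 and -1.74, all passing, and the Cd74 difference was -1.93 (edgeR adjusted p = 0.439). With a minimum of 1 type marker UMI the differences for H2-Aa (-0.29) and H2-Ab1 (-0.24) did not pass.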

How the results depend on the processing

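Beside the fits that left out 1 replicate each, 276 alternative values were computed, of which 249 kept their direction and their side of the threshold, 11 lost the call, 6 gained one and 10 turned direction. The rise of Cd74 with age was called by edgeR or DESeq2 under every alternative run in all ECs and in each of the 4 types, and the lower juvenile level in all ECs, arterial, metaphyseal and sinusoidal cells. The values that follow are log2 differences of Cd74, and the cause of each change was not tested. In haematopoietic-free cells PTH against adult was -0.65 in all ECs, -0.73 in arterial, -0.51 in sinusoidal and -1.89 in type R cells, alendronate against adult was 0.26 in all ECs and 0.35 in sinusoidal cells, and sinusoidal minus type R was 0.40, none of them called. DESeq2 gave -1.13 (arterial, PTH), -1.36 (sinusoidal, PTH), 0.48 (metaphyseal minus sinusoidal) and 0.79 (sinusoidal minus type R), and called none of these. Alendronate against adult was 0.12 in all ECs and -0.73 in sinusoidal cells with an endothelial marker sum of at least 4, and 0.40 in arterial and -0.41 in sinusoidal cells with no filter on low counts. With a type marker sum of at least 1 it was 0.28 in metaphyseal and -0.53 in sinusoidal cells, PTH against adult was -0.12 in type R cells and sinusoidal minus type R was 0.68. With a sum of at least 4 alendronate against adult was 0.97 in arterial, -0.18 in metaphyseal, -0.60 in sinusoidal and 0.11 in type R cells, and PTH against adult was -3.58 in type R cells. Of these alendronate values, the negative sinusoidal ones under each of these 4 settings and both arterial ones were called. The last value was -0.41 with thinned cells and -1.72 without the 5% of cells with the most UMIs. Without both aged libraries sinusoidal minus type R was 0.82.

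With each replicate left out in turn, alendronate against adult ran from -0.33 to 0.19 in all ECs, from -0.77 to -0.26 in metaphyseal, from -0.87 (without adult replicate 1, called) to 0.22 in sinusoidal and from -2.36 to 0.45 in type R cells. In arterial cells alendronate against adult ran from 0.000728 (without alendronate replicate 2) to 0.67 (without adult replicate 1). PTH against adult ran from -1.75 to -0.71 in arterial, from -1.92 to -0.82 in sinusoidal and from -0.99 to 2.61 in type R cells. A group left with 1 library is assumed to vary like the others. With the replicate number as a block 20 of 20 comparisons kept their call, with Cd74 at 3.58 (aged), -3.66 (juvenile), -1.87 (PTH) and -0.05 (alendronate). Same-numbered libraries shared only a number, with correlations of their deviations from -0.162 to 0.0492 over 10 pairs of groups. Over all genes, the number called moved by more than 1.5 times in 25 of 26 comparisons with thinned cells, and in 13 of 26 each with DESeq2 and in haematopoietic-free cells. In all ECs 4121 genes were called under PTH, against 2059 thinned, 2472 by DESeq2 and 2172 in haematopoietic-free cells, and 3633 under alendronate, against 1893, 2026 and 2363. Between arterial and sinusoidal cells 7356 genes were called, against 4383 thinned.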
